A study of Mus musculus with 8 samples.

Results

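Open chromatin was compared between thymic group 2 innate lymphoid cells (ILC2s) carrying E47-ER and the same kind of cells carrying GFP alone, each after 4 h of 4-hydroxytamoxifen. The members are the regions of the 2 ATAC-seq peak lists of these groups, 49811 in the E47 list and 42665 in the GFP list, which together are 92476 of the 185971 regions in the 4 lists of the study. The cells came from the thymus of plck-Id1 mice, a transgenic line that by its name expresses Id1 under an Lck promoter, on a C57BL/6 background. They were stimulated with cytokines, transduced with a MIGR1 retrovirus for GFP alone or for GFP together with E47-ER, sorted for GFP, expanded in cytokines and given 4-hydroxytamoxifen. All groups carried the Id1 transgene, a retrovirus and the drug, so the GFP cells are a control for the fusion protein and not for the drug. Each group had 2 samples (4 of the 8 in the study), and the labels do not say whether they came from separate cultures or animals. The free-text descriptions attach E47-ER to the second sample of every group, GFP groups included, which goes against the titles. Groups here follow the titles, and the lists hold nothing that could settle this. The authors made 1 list from the samples of a group, so no value has a spread between samples and no difference was tested. Intervals are exact binomial (Clopper-Pearson) at 95% and cover counting error only.

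E proteins are basic helix-loop-helix transcription factors that bind E-box DNA as dimers, and E47, encoded by Tcf3, is one of them. Id proteins pair with E proteins and keep them off DNA, and lymphoid progenitors with high Id activity are steered away from the T and B cell fates towards innate lymphoid fates. In E47-ER the factor is joined to a hormone-binding domain of the estrogen receptor, which holds it inactive until tamoxifen is given. ATAC-seq marks open chromatin by where the Tn5 transposase can insert. ILC2s are known for Gata3 and Rora, for the alarmin receptor Il1rl1 and for the type 2 cytokines Il5 and Il13.

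A region is the merged stretch of all overlapping peak lines in a list. It was called E47-only if it overlapped no GFP region by 1 bp, GFP-only in the reverse case, and shared otherwise. Strength ranks a region by its highest −log10 p, as a percentile of its own list, and fold is the highest enrichment over local background among its peaks. Both are the authors' values and were compared only within a list. Absence from a list means no call, and the site may still be open below the threshold. In a bulk sample, fewer cells with an open region and less opening per cell cannot be told apart.

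Because E proteins act through E-boxes, the promoters touched by list-only regions are shown first. RefSeq promoter windows of GRCm38.p6 (the assembly that mm10 names) span 250 bases before to 50 after each start. The stretches below are the 250 bases before the start, read 5′ to 3′ on the gene's strand, and capitals mark E-boxes (CANNTG) and AP-1 motifs (TGANTCA). For E47-only regions they are the promoter of Gm11725 at chr11:117871490-117871739 (plus strand), that of Wiz at chr17:32369423-32369672 (minus strand), that of Shroom3, an actin-binding regulator of cell shape, at chr5:92897743-92897992 (plus strand), and an internal promoter of Lck, the proximal T cell receptor kinase, at chr4:129558373-129558622 (minus strand). All those shown were picked after their motifs and values were seen, so they are examples and not a sample, and Lck was added because the transgene carries Lck promoter sequence in all groups.
Gm11725: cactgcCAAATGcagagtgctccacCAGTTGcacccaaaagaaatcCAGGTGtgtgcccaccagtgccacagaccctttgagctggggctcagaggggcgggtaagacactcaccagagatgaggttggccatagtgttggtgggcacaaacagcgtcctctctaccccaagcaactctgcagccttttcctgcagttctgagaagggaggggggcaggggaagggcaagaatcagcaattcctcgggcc
Wiz: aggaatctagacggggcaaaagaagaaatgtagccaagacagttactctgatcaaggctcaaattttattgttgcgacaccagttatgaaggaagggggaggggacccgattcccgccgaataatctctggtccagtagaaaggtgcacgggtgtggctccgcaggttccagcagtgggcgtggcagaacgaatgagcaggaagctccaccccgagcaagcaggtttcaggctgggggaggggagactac
Shroom3: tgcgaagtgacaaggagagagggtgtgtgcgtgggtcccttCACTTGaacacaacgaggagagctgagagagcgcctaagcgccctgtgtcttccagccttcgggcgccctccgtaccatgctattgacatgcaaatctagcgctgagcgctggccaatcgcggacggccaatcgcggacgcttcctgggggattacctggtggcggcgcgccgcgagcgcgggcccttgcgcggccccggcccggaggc
Lck: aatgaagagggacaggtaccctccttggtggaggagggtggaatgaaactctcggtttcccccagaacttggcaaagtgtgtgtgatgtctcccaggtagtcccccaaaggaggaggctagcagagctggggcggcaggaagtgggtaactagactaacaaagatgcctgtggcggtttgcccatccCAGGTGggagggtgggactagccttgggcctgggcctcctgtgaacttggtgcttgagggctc
For GFP-only regions they are the promoters of the predicted genes Gm36553 at chr13:101589583-101589832 and Gm46359 at chr12:78910724-78910973, both on the plus strand.
Gm36553: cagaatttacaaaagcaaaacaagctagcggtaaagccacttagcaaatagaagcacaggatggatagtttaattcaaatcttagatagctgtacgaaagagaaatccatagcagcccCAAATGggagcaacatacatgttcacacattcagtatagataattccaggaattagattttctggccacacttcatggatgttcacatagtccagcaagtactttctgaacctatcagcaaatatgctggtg
Gm46359: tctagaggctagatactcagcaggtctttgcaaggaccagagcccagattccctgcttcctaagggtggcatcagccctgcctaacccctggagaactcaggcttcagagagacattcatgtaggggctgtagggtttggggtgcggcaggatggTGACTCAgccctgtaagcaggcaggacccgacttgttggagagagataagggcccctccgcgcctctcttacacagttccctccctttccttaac
Among the 6 strongest promoters of each class, 4 E47-only and 3 GFP-only stretches hold an E-box. Over the full windows, a CANNTG was in 72.6% of E47-only, 70% of GFP-only, 61.5% of shared and 72.3% of all windows. These counts thus set neither class apart. The E47-only stretch of highest strength, at Nlrp1b, holds 2 E-boxes but no CAGGTG, and those of Wiz and Ifi208 hold none. On the GFP-only side, the Gm13481 stretch holds 2 and that of Alox8 1, and those of Klra2 and Gm41514 hold none. The Alox8 region overlaps its window by 24 bp after the start and does not reach the stretch, so that E-box lies outside it. The Gm11725 stretch holds 3 E-boxes, 1 of them CAGGTG, but all 3 lie outside the E47-only region, which begins further downstream. The Lck stretch holds 1 CAGGTG, inside its region. The Shroom3 and Gm36553 stretches hold 1 other E-box each, inside the region at Shroom3 but outside it at Gm36553. The Gm46359 stretch holds no E-box and 1 TGANTCA, inside its region. At Gm11725 the E47-only region (chr11:117871573-117872702) had strength percentile 65.9 and fold 8.6, lay 636 bp from the nearest GFP region and was not called in GFP cells at 16 h. At Shroom3 the region had percentile 57.8 and fold 13.3, 56684 bp from the nearest GFP region, and GFP cells at 16 h did have a call there. The Lck region (chr4:129558335-129558971, percentile 56.8, fold 6.63) was also called in GFP cells at 16 h. Reads from the Lck gene and from the transgene's promoter cannot be told apart. The GFP-only region at Gm46359 had percentile 48.6 and fold 7.97 and was called in E47 cells at 16 h, while that at Gm36553 (percentile 49, fold 11.4, 559 bp from an E47 region) was not.

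Over all windows, the E-box shares of E47-only and GFP-only promoters overlapped within counting error. Of 12865 promoter windows with a 4 h region, 631 (4.9%) were overlapped by an E47-only region and 223 (1.73%) by a GFP-only region. CAGCTG, an E-box that reads the same on both strands, was in 18.7% of the E47-only windows (interval 15.7 to 22%), in 19.3% of the GFP-only windows (14.3 to 25.1%), in 14.2% of windows with a shared region and in 16.3% of all 32817 windows. CAGGTG or its reverse complement CACCTG was in 23.5%, 21.5%, 17.4% and 20.2% of the same 4 sets. The AP-1 motif TGANTCA, searched on both strands, was in 6.18% of E47-only windows (4.43 to 8.35%), in 15.2% of GFP-only windows (10.8 to 20.6%), in 4.7% of windows with a shared region and in 7.81% of all windows. The E47-only and GFP-only intervals for TGANTCA do not overlap, and counting error is the one error they cover. Windows with a shared region were richer in G and C (median 62.3% of bases) than E47-only (57%), GFP-only (57.3%) and all windows (52.7%), and the part of base composition in these shares was not tested. On either strand, the Runx motif TGTGGT was in 15.2% of E47-only and 17% of GFP-only windows, beside 12% of windows with a shared region and 16.8% of all windows. The GATA motif AGATAA was in 6.97% and 12.1%, beside 5.37% of shared and 11.2% of all windows. The ETS motif GGAAGT was in 25.5% and 19.3%, beside 28.8% and 23.8%. Promoters hold few of the list-only regions, 564 of 12405 (4.55%) for E47 and 193 of 5272 (3.66%) for GFP, against 26% and 25.7% of the shared regions, so these shares speak for a small part of each class.

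The E47 list had more regions of its own. In it 12405 of 49811 regions were E47-only, 24.9% (24.5 to 25.3%), and in the GFP list 5272 of 42665 were GFP-only, 12.4% (12 to 12.7%). The E47 list was also longer, and cutting it to the 42665 strongest regions left 7130 E47-only (16.7%) and 6898 GFP-only regions (16.2%), an excess of 232. Among the 20000 strongest regions of each list there were 2194 E47-only and 2278 GFP-only, so the direction of the excess turned. The peak lists carry no read depths, and the part of depth in list length was not tested.

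List-only regions were narrow and weak. E47-only regions had a median width of 229 bp, a median fold of 5.84 and a median strength percentile of 17.4, where shared regions of the E47 list had 481 bp, 10.5 and 62.2. A single summit was present in 53.9% of E47-only and 25.2% of shared regions. GFP-only regions had a median width of 251 bp, fold 6 and percentile 13.8, against 444 bp, 9.59 and 56.1 for shared regions of the GFP list. Above the median of their list stood 628 E47-only regions (5.06% of them) and 98 GFP-only regions (1.86%). At the edge of the rule, 1663 E47-only regions (13.4%) ended within 100 bp of a GFP region and 508 GFP-only regions (9.64%) within 100 bp of an E47 region, while 7 and 8 shared regions overlapped the other list by 50 bp or less. The median distance to the other list was 4841 bp for E47-only and 5454 bp for GFP-only regions.

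With each list split into 10 equal classes by strength, the share of list-only regions fell from the weakest to the strongest class in both lists. In the E47 list it was 76.8% below percentile 10, 46.3% between 20 and 30, 18.7% between 40 and 50, 3.11% between 60 and 70 and 0.0803% (4 of 4981) between 80 and 90. None of the 4982 strongest E47 regions was E47-only, a count of 0 that allows up to 0.074% by the exact interval. The GFP list ran from 47.5% over 21.9% and 6.61% to 0.445% in the same classes up to percentile 70, with 0 of 4266 between 80 and 90. Regions near the top of a list were therefore called with both vectors, and the 4 h difference in calls lay among weaker ones. The rule records calls alone, so a difference in openness at a shared region was not measured.

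**Figure D1:**
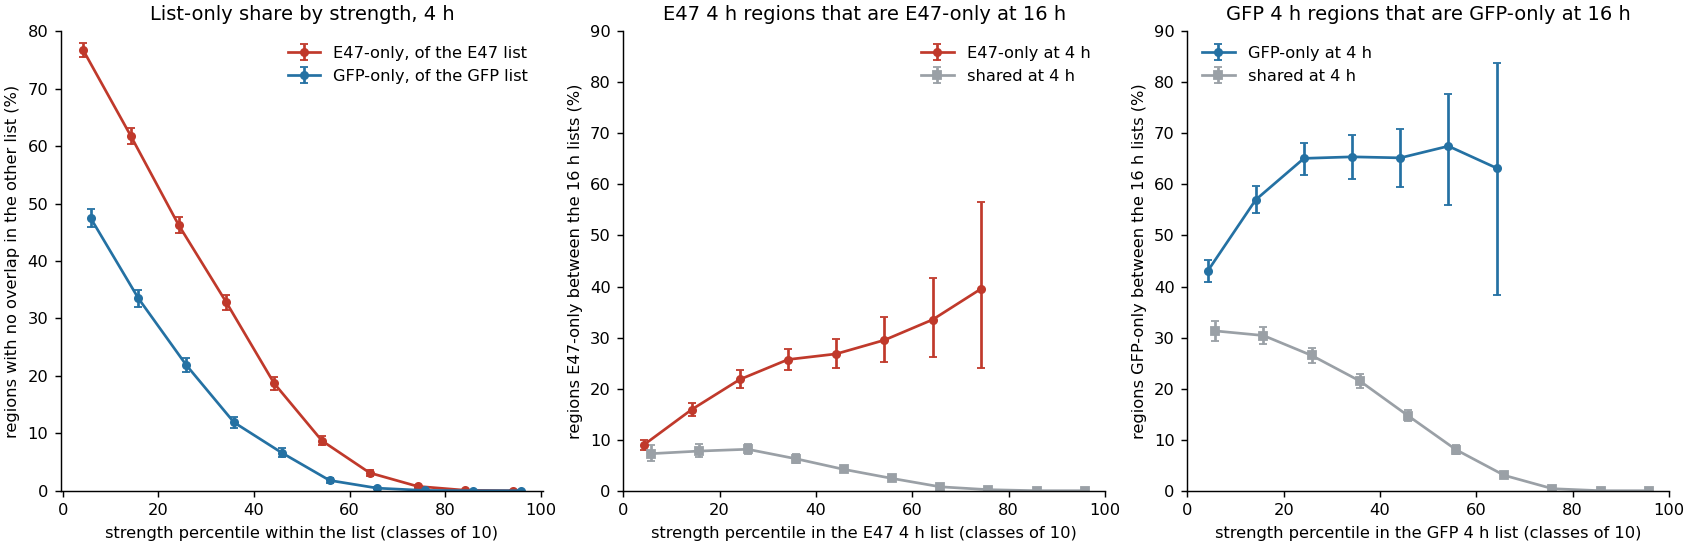
Left, percent of regions (y) with no overlap in the other 4 h list, by strength class (x) of the E47 list (red) and the GFP list (blue), falling from 76.8% and 47.5% in the weakest class towards 0. Middle and right, percent of the E47 and GFP regions in each class that were E47-only or GFP-only between the 16 h lists, for regions list-only at 4 h (red, blue; classes with 10 or more) and shared at 4 h (grey); bars are 95% exact binomial intervals.

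The 16 h lists come from other samples, so they show how many of the 4 h differences recurred. Of the E47-only regions 2200 of 12405 (17.7%, 17.1 to 18.4%) were again E47-only between the 16 h lists, against 2.63% of shared regions and 6.39% of all E47 regions. A further 23% were called with both vectors at 16 h, 23.9% in the GFP list alone and 35.4% in neither. E47-only sites called later in control cells alone (2964) thus outnumbered those called later in E47 cells alone. GFP-only regions recurred more often: 2871 of 5272 (54.5%, 53.1 to 55.8%) were again GFP-only, against 11.6% of shared regions and 16.9% of all GFP regions. List length enters here as well, since the 16 h E47 list was the shortest (40649 regions) and the 16 h GFP list the longest (52846). With all 4 lists cut to 40649 regions, 38.6% of E47-only regions (37.4 to 39.8%) and 41.6% of GFP-only regions (40.4 to 42.9%) recurred, beside 4.31% and 7.33% of shared regions.

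Recurrence grew with strength among E47-only regions, from 8.94% below percentile 10 to 21.8% between 20 and 30, 26.8% between 40 and 50 and 33.5% between 60 and 70. In the weakest class this was close to the 7.26% of shared regions, and the intervals overlap (8.06 to 9.89% and 5.83 to 8.91%). Between percentiles 60 and 70 shared regions were at 0.767%. Recurrence needs a call in E47 cells at 16 h. From the weakest class to percentiles 60 to 70, such calls went from 15% to 98.7% of E47-only regions. Calls in GFP cells at 16 h went from 30.9% to 66.5% of E47-only regions between the same classes. Above the median, 195 of 628 E47-only regions recurred (31.1%) and 395 (62.9%) were called with both vectors at 16 h. Of the 98 GFP-only regions above the median, 64 recurred (65.3%) and the other 34 were called with both vectors.

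List-only regions lay away from gene ends. No more than 1 kb from the nearest gene end were 15.1% of E47-only regions (14.5 to 15.7%) and 33.9% of shared regions. Shared regions at or below the median strength of the E47 list were at 17.2% (16.6 to 17.9%), nearer to the E47-only value. For GFP-only regions the share was 9.48% (8.71 to 10.3%), below the 17.7% of shared regions at or below the GFP median. E47-only and GFP-only regions were inside a gene in 50.1% and 51.7% of cases and had no gene within 100 kb in 4.92% and 7.21%. Across the autosomes and chromosome X the E47-only share ran from 23.2% on chromosome 7 to 27.2% on chromosome 15, and the GFP-only share from 10.4% on X to 15% on chromosome 13.

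The 10 strongest E47-only regions stood between percentile 75.6 and 86 of the E47 list. The strongest (chr8:105623048-105623628, fold 11.9) lay 1045 bp from Ripor1 but was 157 bp from a GFP region and was called in GFP cells at 16 h. Others that GFP cells also had at 16 h were near Cdk20 (percentile 85.8, fold 17.2), 22094 bp from B4galt1, a galactosyltransferase (81.5, fold 16.1), inside the actin-binding gene Nebl (79.6) and inside the F-box gene Fbxl17 (79.1). Not called in GFP cells at either time were the regions near Prps1l1 (chr12:34990207-34990864, percentile 84.1, fold 20.4), Ppm1h, a protein phosphatase (chr10:122651816-122652327, 79, fold 20.5) and Snrpe, a spliceosomal Sm protein (chr1:133549796-133550317, 78.2, fold 19), and a second B4galt1 region inside the gene (chr4:40823598-40824279, 75.8, fold 13.1). All 10 were called in E47 cells at 16 h, as were 100% of E47-only and shared E47 regions between percentiles 70 and 90. These 4 regions absent from both GFP lists were 9511 bp to 59444 bp from the nearest GFP region at 4 h.

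GFP-only regions reached lower in their list, with the 10 strongest between percentile 61.9 and 73.6. The strongest (chr13:5892745-5893030, fold 13.3) lay 22455 bp from Klf6, a zinc finger transcription factor, and was called in E47 cells at 16 h, as were those near Tmem144, Baiap2 and Rbms1. The Tmem144 and Baiap2 regions ended 66 bp and 65 bp from an E47 region. Absent from both E47 lists were the region near the G protein regulator Rgs21 (68.7, fold 16.7) and those inside Dnah3 (62.8), Slc35d1 (62.7) and Ap3s2 (62.5).

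**Figure D2:**
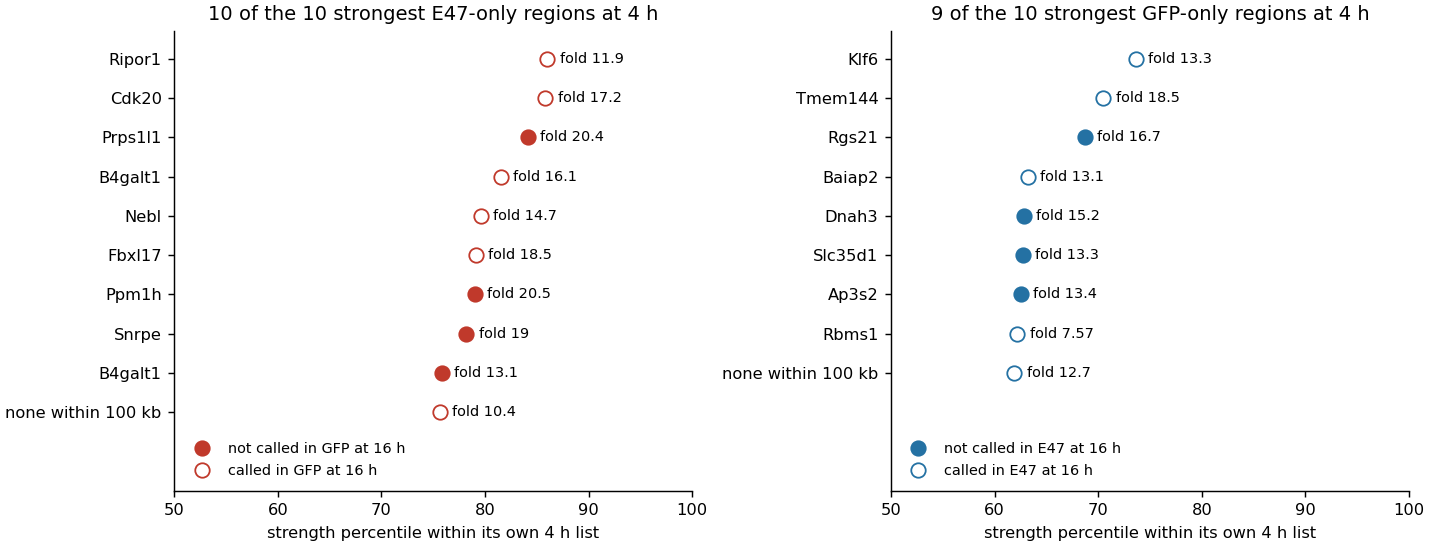
Strength percentile within its own 4 h list (x) of the 10 strongest E47-only (left, red) and 9 of the 10 strongest GFP-only (right, blue) regions, named by the nearest protein-coding gene, with the authors' fold beside each point. Filled points were not called with the other vector at 16 h (4 of 10 and 4 of 9), and open points were.

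Each region was given to the nearest protein-coding gene within 100 kb, which is a label of position and not a regulatory link. Of 14725 genes with a 4 h region, 6726 (45.7%) had an E47-only region and 3531 (24%) a GFP-only region. With lists of equal length, where the E47 list is cut to its 42665 strongest regions and the GFP list is left whole, E47-only counts can only fall and GFP-only counts only rise. The shares were then 31.9% and 30.1% of 14362 genes. An excess of 5 or more E47-only regions was found at 167 genes and the reverse at 8, which became 32 and 35 at equal length. The gap between 167 and 8 was thus absent from lists of equal length.

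Zmiz1, a transcriptional co-activator known to work with Notch1, had the largest excess: 17 of its 41 E47 regions were E47-only, and 1 of its 24 GFP regions was GFP-only. Tgfbr2, the type II receptor of TGF-beta, had 15 of 31 E47-only and 1 of 17 GFP-only, and at equal length it had 11 and 1, the widest gap of the 16 genes drawn. Mgat5, which branches N-glycans, had 15 of 28 and 2 of 15. Etv6, an ETS-family repressor, had 13 of 30 and 2 of 19. Ttc39b (11 of 25 and 0 of 14), Tg (11 of 20 and 1 of 11), Tnfaip8 (11 of 24 and 1 of 14) and Cdyl2 (10 of 18 and 1 of 9) completed the 8 genes. Tg is the thyroglobulin gene, and the T cell adaptor gene Sla lies inside it, so regions there can be given to either. At equal length Tg had 4 and 3, so its excess nearly closed. These E47-only regions were mostly weak, with median percentiles of 15.6 at Zmiz1, 20.1 at Tgfbr2, 18.2 at Mgat5 and 36.5 at Ttc39b. Between the 16 h lists, 3 of the 17 at Zmiz1 and 5 of the 15 at Tgfbr2 were again E47-only. So were 8 of the 15 at Mgat5 and 1 of the 13 at Etv6, beside 17.7% of all E47-only regions.

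In the other direction Rgs1, a regulator of G protein signalling in lymphocytes, had 6 of 16 GFP regions GFP-only and 0 of 10 E47 regions E47-only. Prss35 (5 of 8), Tmem170b (5 of 9), Dip2c (5 of 9) and Erc1 (5 of 8) also had no E47-only region. Ell2, a transcription elongation factor, had 6 of 14 GFP-only, Alpk2 6 of 11 and Babam2 6 of 18, each with 1 E47-only region. The GFP-only regions were again GFP-only at 16 h in 4 of 5 cases at Prss35 and 4 of 5 at Erc1. The counts were 5 of 6 at Alpk2 and 4 of 6 at Ell2, but 2 of 6 at Rgs1. Over all GFP-only regions the share was 54.5%.

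**Figure D3:**
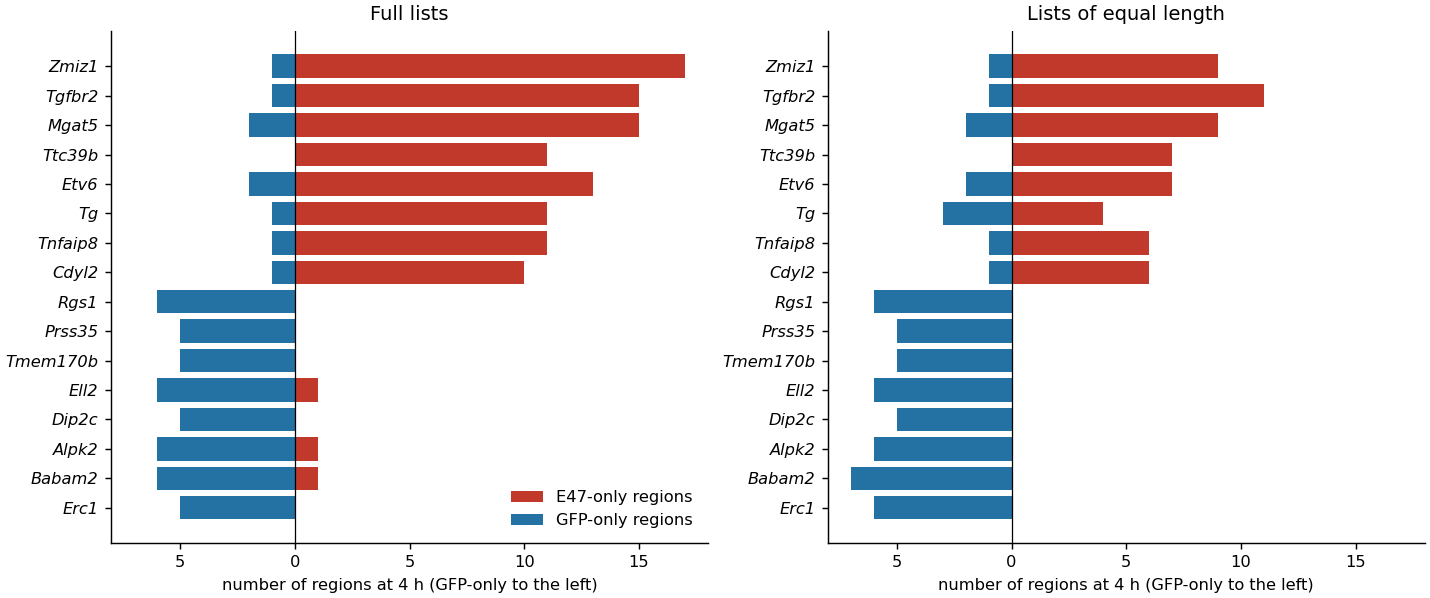
Number of E47-only (red, right) and GFP-only (blue, left) regions at 4 h for the 8 genes with the largest excess each way, with full lists (left panel) and lists of equal length (right panel). In the right panel only the E47 list was cut, so red bars can only keep their length or shorten (Zmiz1 from 17 to 9) and blue bars can only keep theirs or grow.

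At Tgfbr2 (chr9:116087695-116175363) 8 of the 15 E47-only regions were inside the gene, and 5 lay within 1 kb of a GFP region. The highest of them was chr9:116138700-116139043 (percentile 49.4, fold 6.11), 541 bp from a GFP region and E47-only at 16 h as well. The next, chr9:116160801-116161256 (45.2, fold 5.53), was called in GFP cells at 16 h. The locus thus held no E47-only region above the median, while its shared E47 regions ran from percentile 0.215 to 87.8. Ccr9, the receptor that guides cells to the thymus and gut, gave another picture. It had 3 of 4 E47 regions E47-only, all 3 outside the gene and again E47-only at 16 h, and its 1 GFP region was shared. Of the E47-only regions, chr9:123754349-123754818 stood at percentile 68.3 and fold 12.7, 13656 bp from the nearest GFP region, and chr9:123756796-123757118 at 51.9 and fold 8.59, while the remaining region was weak (percentile 0.0522). All 3 lay over 5 kb from the gene, so none counts when regions are taken only from the gene body and 5 kb to either side. Tox, an HMG-box factor of early innate lymphoid precursors, had 5 of 10 GFP regions GFP-only and 2 of 6 E47 regions E47-only. All 5 were inside the gene and GFP-only at 16 h too, the highest at percentile 55.9 (chr4:6963516-6963919, fold 11.3).

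**Figure D4:**
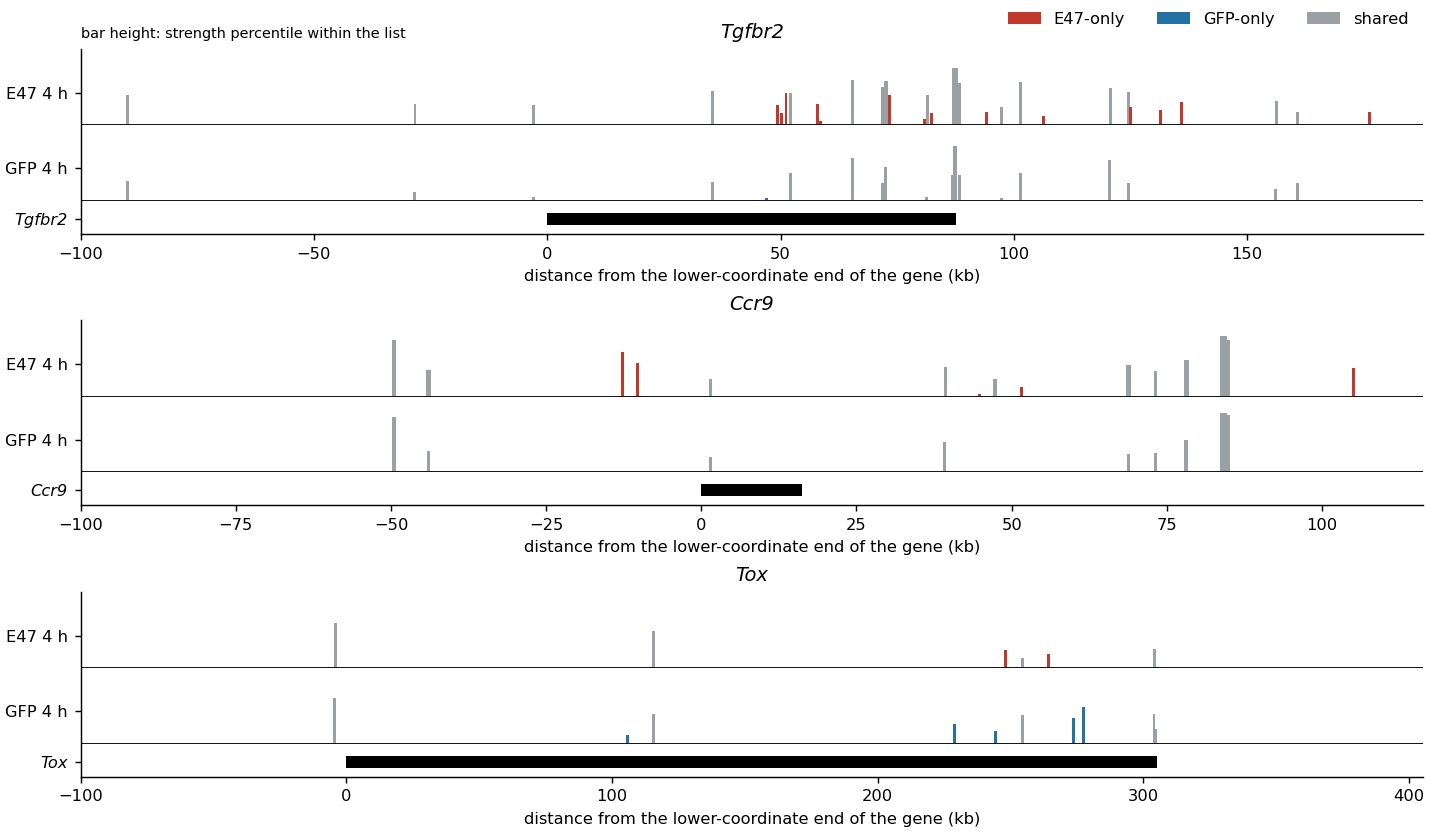
Regions of the E47 (upper row) and GFP (lower row) 4 h lists around Tgfbr2, Ccr9 and Tox by distance in kb from the gene's lower-coordinate end (x), with the gene in black, drawn to 100 kb on either side. Bar height is strength percentile within the list, and colour marks E47-only (red), GFP-only (blue) and shared (grey) regions. Tgfbr2 shows 15 red bars, the highest at 49.4. Ccr9 shows a pair of red bars (68.3 and 51.9) below the gene's lower end, beside 1 too low to see. Further red bars in the Ccr9 panel are nearest to other genes. Tox shows 5 blue bars.

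Gene lists were described by their share of list-only regions beside that of all regions (24.9% and 12.4%). Among E proteins, Id proteins and partners, 13 of 55 E47 regions were E47-only (23.6%) and 4 of 48 GFP regions GFP-only (8.33%), both close to the background. Tcf3 itself had 2 regions in each list and Id2, the Id gene of innate lymphoid cells, 10 and 12, all shared. Esr1, which encodes the estrogen receptor, had 6 E47 and 7 GFP regions with 1 GFP-only. Whether reads of the retroviral insert add to Tcf3 or Esr1 was not tested. Id1 had 3 and 2 regions with 1 E47-only, and its transgene cannot be told apart from the gene. Cbfa2t3, which encodes the co-repressor ETO2, had 4 of 5 E47 regions E47-only. Its 2 highest, chr8:122701523-122702877 (percentile 53.7) and chr8:122700502-122701074 (23.5), lay just outside the gene, were over 20 kb from any GFP region at 4 h (22636 bp and 21615 bp) and were E47-only at 16 h. Tcf12, the gene of the E protein HEB, had 2 of 6 GFP regions GFP-only at both times.

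Known E protein target genes of lymphocytes had 46 of 157 E47 regions E47-only (29.3%, 22.3 to 37.1%) and 11 of 120 GFP regions GFP-only (9.17%). With lists of equal length this was 35 against 18, where all regions gave 7130 against 6898. Between the 16 h lists 23 of the 46 were again E47-only, beside 17.7% of all E47-only regions. Of the 11, 6 were again GFP-only, beside 54.5% of all GFP-only regions. Ets1, an ETS factor needed for ILC2s, had 7 of 24 E47-only and none of 17 GFP-only. Foxo1 had 4 of 14 E47-only and 1 of 11 GFP-only, and 3 of each at equal length. Ikzf1 had 5 of 24 (20.8%, below the share over all regions) and 1 of 20, and Jdp2, an AP-1 family repressor, 5 of 14 and 2 of 11. Dntt, the terminal transferase of antigen receptor joints, had 2 of 5 regions E47-only, both inside the gene and both at 16 h, with chr19:41039122-41039685 at percentile 63.8 and fold 13.6. Hes1, a Notch target, had 3 of 9, of which 2 recurred at 16 h. The Rag1 and Rag2 genes had 2 regions and 1 region in each list, all shared. Jdp2 and Cbfa2t3 were put on the list with knowledge of the study, and Dntt and Hes1 are described here after their values were seen.

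The TGF-beta receptor and Smad list had 52 of 161 E47 regions E47-only (32.3%, 25.2 to 40.1%) and 13 of 122 GFP-only (10.7%). Without Tgfbr2 it was 37 of 130 (28.5%, 20.9 to 37%), an interval that includes the background. Ski, a co-repressor of Smads, had 5 of 14, the signalling Smad3 5 of 20 and the inhibitory Smad6 4 of 10 E47-only regions, and Smad2 had 3 of 8 GFP-only. Smad3 was thus at 25%, beside 24.9% of all E47 regions. Tgfbr1, the type I receptor, had 2 of 5 each way, and at equal length 0 E47-only and 2 GFP-only. Tgfbr3, a co-receptor, had 3 of 8 E47-only and 1 of 6 GFP-only, but at equal length the GFP-only regions outnumbered the E47-only ones by 2.

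The list of ILC2 genes came close to the background for E47-only regions, with 44 of 195 (22.6%, 16.9 to 29.1%), and 25 of 176 GFP regions (14.2%) were GFP-only. At equal length the counts were 27 and 30. All 9 defining ILC2 markers had regions in both lists. Of all protein-coding genes, 14725 of 21883 had a region in either list, a looser measure, and the share with regions in both is not given here. Il13 had 6 regions in each and Il17rb 1 in each, all shared. Rora had 8 of 19 E47-only and 2 of 12 GFP-only, and 3 of the 8 recurred at 16 h, beside 17.7% of all E47-only regions. Gata3, the master factor of ILC2s, had 4 of 13 E47-only, none above percentile 26.5 and none E47-only at 16 h, and at equal length it had 1 E47-only and 3 GFP-only. Areg, the growth factor amphiregulin, had 4 of 6 GFP regions GFP-only and both of its E47 regions shared. None of those 4 was called in E47 cells at 16 h, and 2 were again GFP-only (chr5:91135752-91136150 at percentile 42.9 the highest). Over all GFP-only regions, 54.5% were called in GFP cells alone at 16 h and 25.8% in neither list, so Areg does not stand out here. Il2ra, the IL-2 receptor alpha chain, had 3 of 11 GFP-only and 1 of 8 E47-only, and 2 of the 3 recurred.

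ILC3 and Th17 genes had the highest E47-only share of the 18 lists, 29 of 85 regions (34.1%, 24.2 to 45.2%), with 10 of 66 GFP-only (15.2%), and 19 against 11 at equal length. The cytokine gene Il22 had 1 of 2 regions E47-only, chr10:118216023-118216822 at percentile 66.3 and fold 12.5, which was E47-only at 16 h. Iltifb, a near-identical neighbouring copy of Il22, had 2 of 2 E47-only, and reads of the 2 copies could be split either way, so both are uncertain. Il17a had 2 of 3 and its neighbour Il17f 1 of 3, with chr1:20766635-20767183 nearest Il17f at percentile 49.3, and these 2 genes share a locus. Il23r had 1 of 2, inside the gene at percentile 28.2. Of these 5 regions at Il17a, Il17f, Il22 and Il23r none was called in GFP cells at 16 h. But 1 of the 2 at Il17a was not called in E47 cells at 16 h either. Over all E47-only regions, 17.7% were called in E47 cells alone at 16 h and 35.4% in neither list. Il1r1 had 3 of 3 E47-only, of which 2 were called in GFP cells at 16 h and none was E47-only there, and its 1 GFP region was GFP-only at both times. These genes other than Il1r1 were picked after their values were seen.

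T cell receptor, thymocyte and Notch genes had 46 of 152 E47 regions E47-only (30.3%, 23.1 to 38.2%) and 21 of 129 GFP regions GFP-only (16.3%, 10.4 to 23.8%), so both shares lay above the background with intervals that include it. Cd2, an adhesion receptor of T and NK cells, had 6 of 9 E47-only and Thy1 5 of 8, with no GFP-only region. At 16 h 2 of the 6 and 2 of the 5 recurred, beside 17.7% of all E47-only regions. Cd28, the co-stimulatory receptor, had 4 of 5 GFP regions GFP-only and 1 of 2 E47 regions E47-only. Notch1 had 2 of 7 each way. Cd3e had 1 region, E47-only, and no GFP region.

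Migration genes showed both directions. Ccr9 had 3 E47-only regions and no GFP-only one. Itga1, an integrin alpha chain of tissue-resident lymphocytes, had 3 of 8 GFP regions GFP-only and no E47-only region. All 3 were again GFP-only at 16 h, beside 54.5% of all GFP-only regions. Cxcr4 had 3 of 10 GFP-only and 1 of 8 E47-only. The list as a whole had 26.7% E47-only and 16.8% GFP-only regions.

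Among the remaining regulators, Runx, ETS and Ikaros family genes had 28.7% E47-only regions, led by Etv6 and by Fli1 (10 of 26) and Runx1 (8 of 27). Runx2 had 6 of 21 E47-only and 5 of 22 GFP-only, and at equal length the GFP-only regions led by 3. Innate lymphoid precursor regulators had 26.5% and 15.1%, cell cycle and survival genes 27.2% and 13.2%. Ccnd2 (7 of 13), Bcl2l1 (7 of 16) and Cdk6 (7 of 29) tied at 7 regions called with E47 alone against 1 with GFP alone, counts that became 4 and 1, 4 and 3, and 4 and 1 at equal length. The E47-only share at Cdk6 was 24.1%, close to the 24.9% of all E47 regions. AP-1, Batf and Bach genes had 24.8% and 9.47%, cytokine receptor and JAK-STAT genes 22.2% and 8.9%, and housekeeping genes 19.4% and 9.43%. Across the 18 lists the intervals of all GFP-only shares include 12.4%, and those of all E47-only shares but the TGF-beta list include 24.9%.

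Genes of other cells also had open regions in both groups. NK, ILC1 and cytotoxic genes had 56 E47 and 41 GFP regions (12 of 16 genes with a region), B cell genes 11 and 11 (7 of 13), myeloid and dendritic genes 49 and 37 (13 of 17), mast cell and basophil genes 22 and 20 (7 of 10) and stromal or epithelial genes 31 and 21 (8 of 12). Over all protein-coding genes, 14725 of 21883 had a 4 h region. E47-only shares in these gene lists were 33.9%, 18.2%, 30.6%, 27.3% and 32.3%, beside 24.9% of all E47 regions. GFP-only shares were 7.32%, 18.2%, 8.11%, 25% and 4.76%, beside 12.4% of all GFP regions. Cd3g and Cd4 had no region in either list. Mitf, a mast cell and melanocyte factor, had 4 of 8 GFP regions GFP-only, of which 3 recurred, beside 54.5% of all GFP-only regions. Kit had 3 of 7 E47-only, of which none recurred, beside 17.7% of all E47-only regions, and 1 was left at equal length. Open chromatin at a gene is not its expression, and the part of other cells in the 4 h difference was not tested.

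**Figure D5:**
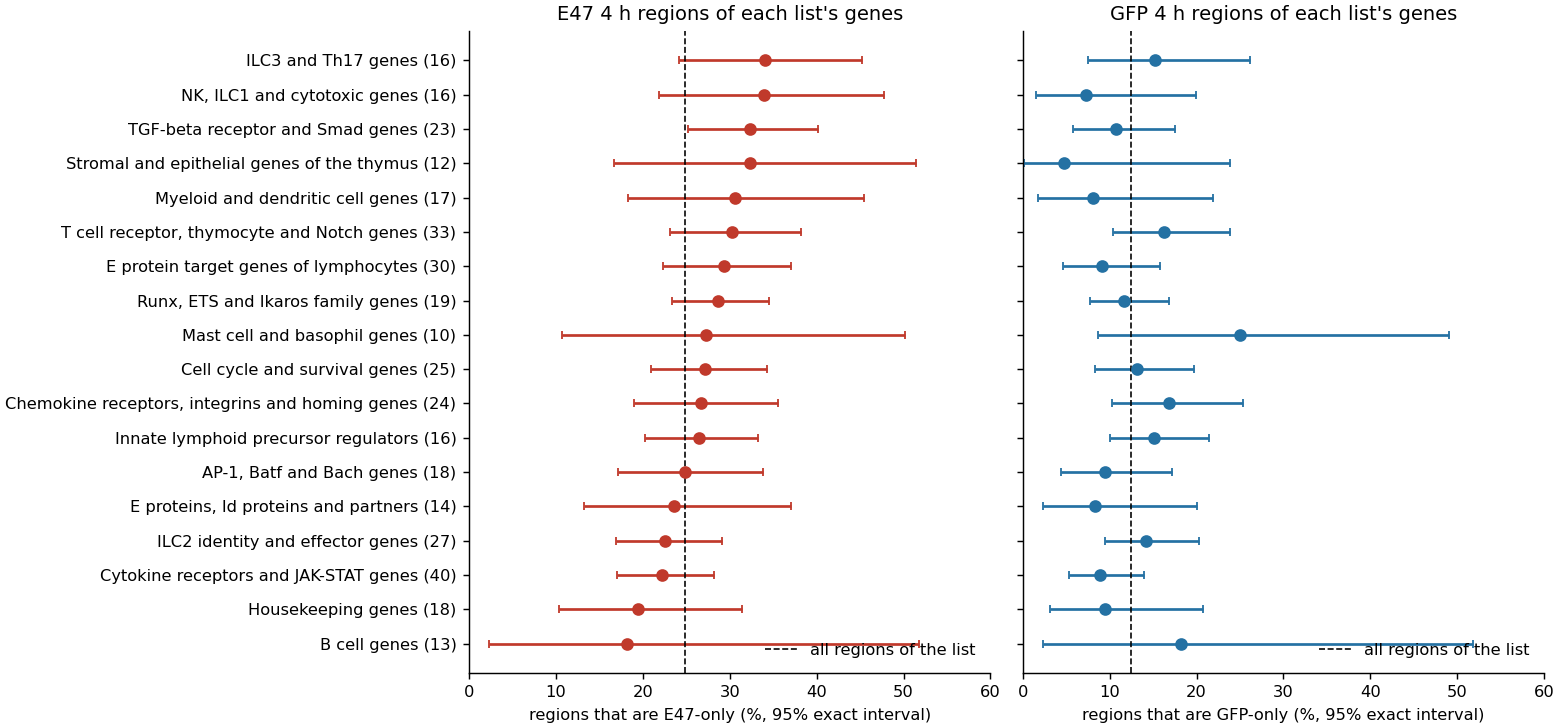
Percent of the E47 regions of each gene list that were E47-only (left, red) and of its GFP regions that were GFP-only (right, blue), with the number of genes in brackets, 95% exact intervals as bars and the share of all regions as dashed lines (24.9% and 12.4%). ILC3 and Th17 genes stand highest on the left (34.1%), and every interval on the right crosses the dashed line.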

How the data were processed

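ATAC-seq of 8 mouse samples in 4 groups was deposited as 1 peak list per group, and the 2 lists at 4 h were used here, with the 2 lists at 16 h for recurrence. Groups follow the titles, which match the transduction and time point labels. Descriptions that disagree with them, as the report says, were set aside. The submitters' processing notes name cutadapt, Bowtie2, MACS2, DiffBind and build mm10 without versions or settings. Per the labels, tracks were trimmed, merged, Tn5-adjusted, pooled and free of duplicate and mitochondrial reads, and the lists are conservative sets by irreproducible discovery rate. The deposited lines hold a score, a fold or ratio of enrichment over background, and −log10 p values set by the authors' caller. The score was not used, nor were q-values. The lowest −log10 p in each list was 2.00. Read depth is not given in these files, and a list grows with depth and with agreement of the pooled samples.

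Overlapping lines were merged, turning 131575 and 112023 lines into 49811 and 42665 regions. Regions were given to the nearest of 21883 protein-coding genes (RefSeq table, GRCm38.p6) within 100 kb of the strongest summit. The planned nearest start was replaced by the nearest gene body, since strand was known for 17491 genes. No genome was used, so motifs were searched in RefSeq promoter windows and not at summits. The members and the 18 gene lists (317 genes, 316 in the table) were chosen with earlier results of these data known, and a few genes are not reported here. The named genes are those nearest the 10 strongest list-only regions each way, the 8 genes with the largest excess each way, up to 4 members of each gene list, in each direction, ranked by list-only regions, those of the 6 strongest list-only promoters each way, and Tcf3, Esr1, Id1, Id2, Gata3, Cbfa2t3 and Jdp2. Of these the text describes a part, and it says where others were chosen after their values were seen; list members such as Rag1, Rag2, Cd3e, Il13, Il17rb and Iltifb were too. The overlap step was tested on simulated data, where 6017 of 6017 list-only regions among 20000 were recovered, and bedtools 2.31.1 gave the same counts. Alternatives were a 50% overlap, a gap of 200 bp, equal lists, the 20000 strongest regions, −log10 p of at least 5, single summits, autosomes, merging within 100 bp, and other gene distances. Computation used scipy 1.17.1, numpy 2.4.6 and pandas 2.3.3 under Python 3.11.15, with figures from matplotlib 3.10.9.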

Additional observations from a re-analysis of the deposited data

How the results depend on the processing

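No paired analysis was possible because each group has 1 peak list and no values per sample, and for the same reason no replicate could be left out. Motifs within 100 bp of summits were not run, as no genome was used. E47-only regions exceeded GFP-only regions by 7133 with full lists, by 232 with lists of equal length (7130 E47-only) and by -84 among the 20000 strongest regions (2194 and 2278). Single summits gave 31949 and 13587 list-only summits, an excess of 18362. A 50% overlap, a 200 bp gap, a −log10 p of at least 5, autosomes and merging within 100 bp kept the excess between 5625 and 7167. Recurrence at 16 h was 38.6% and 41.6% with 4 lists of equal length. Within 5 kb of a gene end lay 32.5% of E47-only and 47.7% of shared E47 regions, and 23.6% of GFP-only and 47.3% of shared GFP regions. In promoter windows overlapped by at least 150 bp, a setting chosen after seeing the data, CAGCTG was in 23.2% of E47-only windows (19 to 27.9%) and 20.9% of GFP-only windows (14.8 to 28.2%), and TGANTCA in 4.97% and 18.3% of E47-only and GFP-only windows. Leaving Tgfbr2 out of the TGF-beta list was also chosen after seeing the data. Of 131 named genes with an excess either way, the excess changed sign at 14 with equal lists: it became -1 at Batf, Bcl11b, Fos, Gzmb, Ifng, Il12rb2, Irf4, Pecam1 and S1pr1, -2 at Gata3, Rbpj and Tgfbr3, and -3 at Ikzf2 and Runx2. With regions in the gene body or 5 kb to either side it changed sign at 4, becoming 1 at Cxcr4 and E2f2 and -1 at Fos and Ywhaz. The causes of these changes were not tested beyond the shorter lists and distances that define them. Depth per library, which bears on every list, is not given in these files.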
